A study of Mus musculus with 6 samples.

Results

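The genes that carry the interleukin-2 (IL-2) and interleukin-7 (IL-7) signal from the cell surface to the transcription factor STAT5 were followed in cells sorted from mouse liver. They were chosen by symbol and not by their values: the receptor chains Il2ra, Il7r, Il2rb and Il2rg, the kinases Jak1 and Jak3, and the transcription factors Stat5a and Stat5b. All 8 were found among 15442 genes in the deposited table, and all 8 were among the 11140 genes that passed the filter on low counts. RNA was sequenced from 3 libraries labelled AIH, an autoimmune hepatitis model, and 3 labelled control. Every library came from primary liver cells of Foxp3-GFP reporter mice, in which green fluorescence marks cells that express Foxp3, which specifies regulatory T cells (Treg cells). The agent that induced the disease, the strain, age and number of animals, and the number of cells per library are not stated in the labels. Whether each library is a different animal is not labelled either: the p-values reflect spread among these samples alone, which may be technical.

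IL-2 is bound by a receptor of an alpha chain (Il2ra, CD25), a beta chain (Il2rb, CD122) and the common gamma chain (Il2rg, CD132), and IL-7 by its own alpha chain (Il7r, CD127) with the same gamma chain. The kinase JAK1 sits on the beta chain or the IL-7 receptor alpha chain and JAK3 on the gamma chain, and together they phosphorylate STAT5A and STAT5B, which enter the nucleus as dimers. Treg cells make little IL-2 themselves, depend on it from their neighbours, and are commonly told from conventional T cells by high CD25 and low CD127.

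The libraries held 17780509 to 24572388 expected counts. Values given one by one below follow the library numbers 1, 2 and 3 within each group. The sorted gene Foxp3 was counted 4.95, 91.5 and 31.5 times under the AIH label, against 418, 274 and 1002 times in the controls. These few Foxp3 reads run counter to a sort for Foxp3 reporter cells, and the group is therefore called the libraries labelled AIH. Whether labels were exchanged or the gate differed was not tested, and an exchange would turn every direction given below. The 9 T cell marker genes found in the table summed to 7121 to 9094 CPM (counts scaled by library size and TMM factors) in those libraries and to 3591 to 5312 CPM in the controls. For 12 macrophage and Kupffer cell genes the sums were 411 to 2617 CPM against 3614 to 14190 CPM, and 11 of the 12 were lower under the AIH label with no overlap, beside 8.87% of all genes tested. The 7 CD8 T cell and NK cell genes summed to 2319 to 3063 CPM against 476 to 1226 CPM, most of it from Nkg7 and Gzma, while the NK cell genes Ncr1 and Klrb1c were at 0 in AIH 2 and AIH 3. The 5 B cell genes summed to 37.4 to 113.6 CPM against 150.6 to 378 CPM. The 7 Treg genes split: their sum was 2862 to 3654 CPM against 1202 to 1784 CPM, carried largely by Tnfrsf18, while Foxp3 and Lrrc32 had log2 fold changes of -3.54 and -0.71. The 6 hepatocyte genes overlapped between the groups, at 319 to 1549 CPM and 566 to 2569 CPM. No marker on these lists that the table holds was at 0 in a whole group. In such pooled samples, fewer cells of a type and less RNA per cell cannot be told apart, and JAK and STAT genes are used by many cell types, so the part of these marker differences in the results below was not tested.

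**Figure D1:**
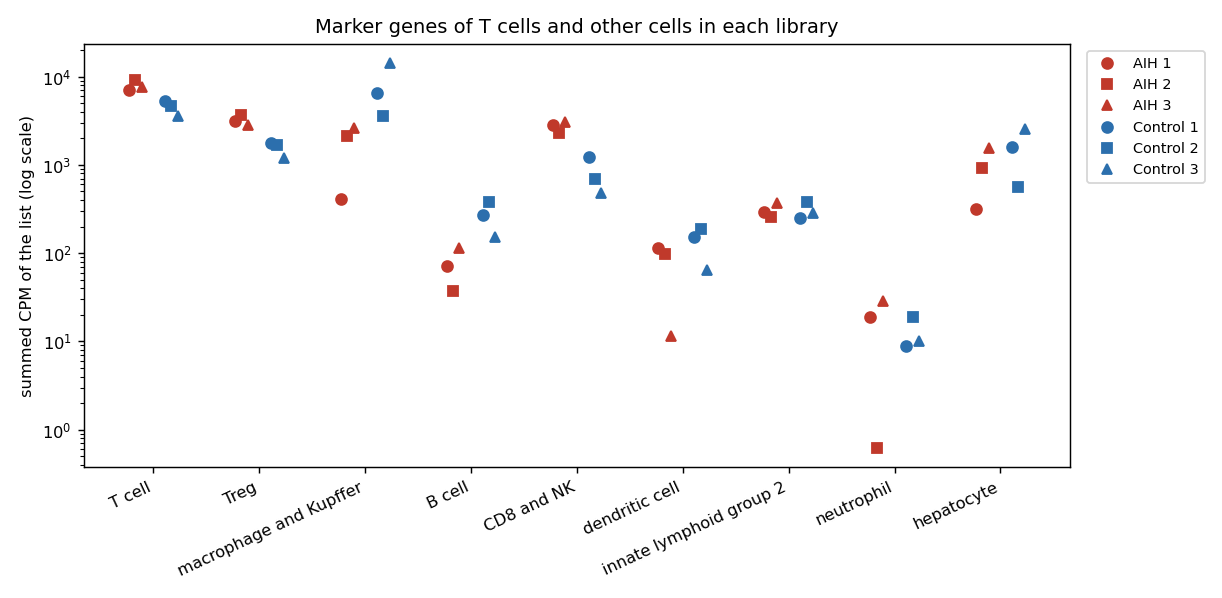
Summed level of 9 lists of marker genes in each library, in CPM on a log scale; colours are the groups and symbols the library numbers. T cell, Treg, and CD8 and NK sums lie higher in all 3 libraries labelled AIH than in all 3 controls, although Foxp3, a member of the Treg list, lies lower; macrophage and B cell sums lie lower; the hepatocyte sums overlap.

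The 8 genes spanned a wide range of levels. On the length-corrected TPM scale, which allows genes to be compared, the mean level over the 6 libraries was 718 for Il2rg, 73.2 for Jak1, 60.9 for Il2rb, 40.7 for Il7r, 38.3 for Il2ra, 11.3 for Stat5a, 9.79 for Stat5b and 0.952 for Jak3. Il2rg lay at percentile 98.5 of all genes in the table and Jak3 at percentile 33.4. Of the 7 steps in this order, 4 held in all 6 libraries: Il2rg above Jak1, Il2rb above Il7r, Il2ra above Stat5a, and Stat5b above Jak3. Jak1 stood above Il2rb in 3 of 6 libraries, Il7r above Il2ra in 4 of 6 and Stat5a above Stat5b in 4 of 6, so these neighbours were not separated.

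**Figure D2:**
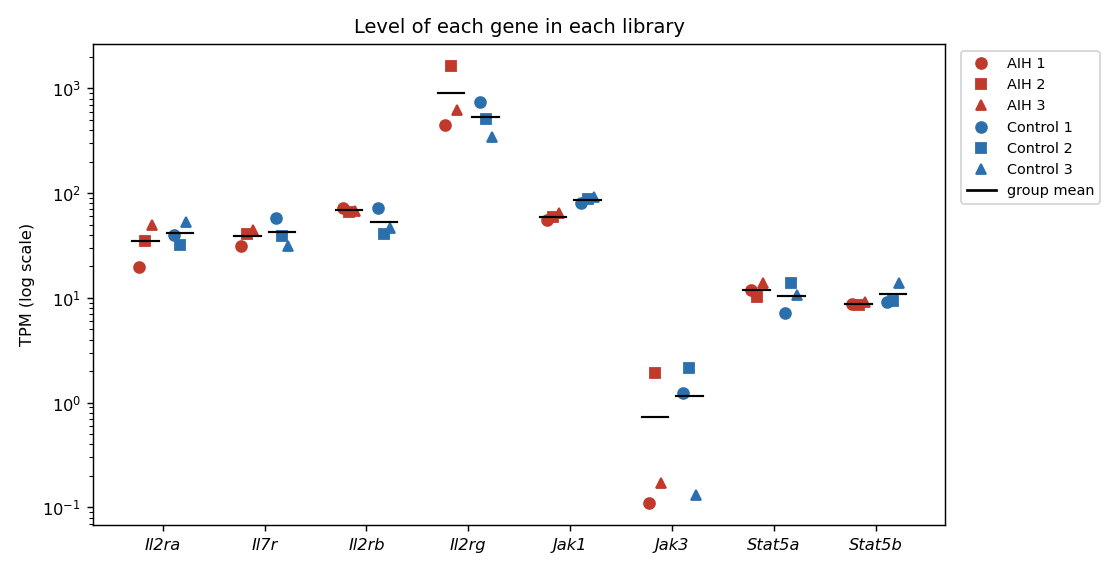
Level of the 8 genes in each library, in TPM on a log scale, with symbols for the library numbers and a black line for the group mean. Il2rg is the highest in every library (343 to 1643 TPM) and Jak3 the lowest (0.11 to 2.13 TPM). In TPM the groups do not overlap for Jak1 and for Stat5b, both lower under the AIH label, as for 12.1% of genes tested. In CPM the Stat5b groups overlap.

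None of the 8 genes passed the test between the libraries labelled AIH and the controls. In edgeR (quasi-likelihood F test, Benjamini-Hochberg over 11140 genes) the adjusted p-values of the 8 ran from 0.673 (Il2rg) to 0.996 (Stat5b), and none of the 8 had an unadjusted p under 0.05. DESeq2's Wald test and limma-voom passed none of the 8 either, with an unadjusted p for Il2rg of 0.0278 by DESeq2. Over all genes tested, 0.0898% passed and 8.27% had an unadjusted p under 0.05. The log2 fold change (labelled AIH minus control) was positive for 4 genes and negative for 4, with a median of 0.01 beside -0.04 for all genes tested. With 3 libraries per group, changes of a size inside the intervals given below are not excluded by these data.

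**Figure D3:**
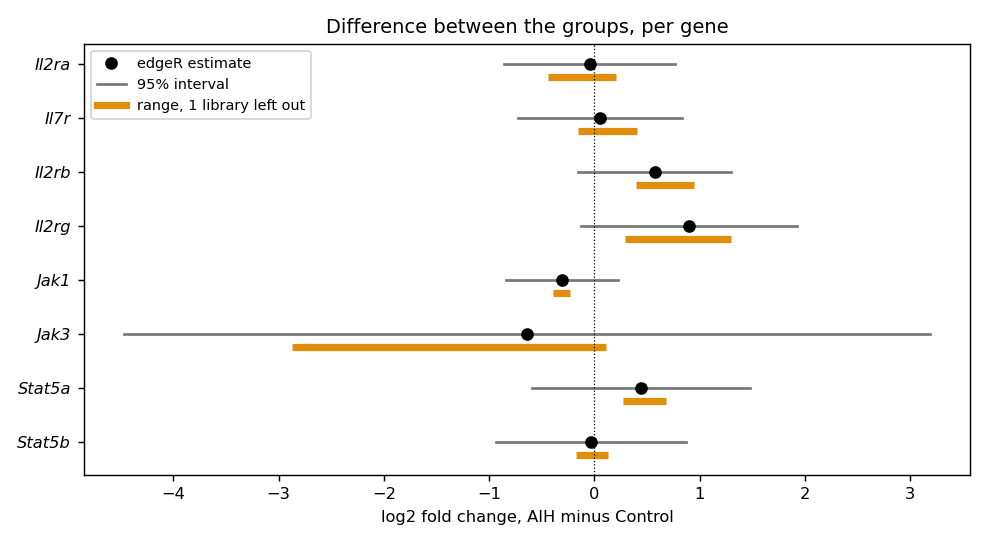
Log2 fold change (labelled AIH minus control) of the 8 genes, with its approximate 95% interval in grey and, in orange, the range of the estimate when 1 library was left out in turn. Every interval crosses 0; the Jak3 interval is the widest, from -4.47 to 3.19, and the Jak1 interval the narrowest, from -0.84 to 0.23.

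Il2ra (Entrez ID 16184), whose chain gives the receptor its high affinity for IL-2, was at 116, 165 and 267 CPM under the AIH label, against 192, 146 and 227 CPM in the controls. AIH 1 was the lowest and AIH 3 the highest of the 6, so the controls lay inside the range of the other group. The log2 fold change was -0.04 (SE 0.36), with a 95% interval of -0.86 to 0.77 and an adjusted p of 0.991 by edgeR. The summed hepatocyte genes followed the same order within each group. Their sums were 319, 934 and 1549 CPM under the AIH label against 1613, 566 and 2569 CPM in the controls. Of the 6 genes, Alb, Fgb and Apoc1 followed this order in both groups. Apoa1, Ttr and Serpina1a did not, each being higher in Control 1 than in Control 3. Of 11139 other genes, the 3 whose log2 CPM was most like that of Il2ra over the 6 libraries were the genes Mat1a, Bco2 and Lcat (Pearson's r of 0.979, 0.977 and 0.977). Mat1a, which encodes a methionine adenosyltransferase of liver, was at 2.88, 6.63 and 38.7 CPM and at 16.96, 3.87 and 19.5 CPM in the same library order, and Lcat encodes a plasma enzyme made by liver. With 6 libraries and this many genes, 22 genes had an r over 0.95, so the likeness is a description, and what part liver RNA had in the Il2ra values was not tested.

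Il7r (Entrez ID 16197), the alpha chain specific to IL-7, was at 131, 136 and 169 CPM under the AIH label against 199, 125 and 95.1 CPM in the controls. The controls were the more spread group and held both the highest and the lowest value. The log2 fold change was 0.06 (SE 0.35, 95% interval -0.72 to 0.84; adjusted p 0.987 by edgeR). The genes most like Il7r were Gid4, H3c4 and Dgat1 (r of 0.964, 0.963 and 0.962), with 3 genes over an r of 0.95. Gid4 belongs to a ubiquitin ligase complex and Dgat1 makes triglycerides. H3c4, a histone gene with near-identical copies, reached at most 99.6 counts and is uncertain.

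Il2ra and Il7r were set against each other within each library, a ratio that does not depend on the scaling between libraries. The ratio of Il2ra to Il7r in TPM was 0.631, 0.863 and 1.12 under the AIH label, against 0.687, 0.831 and 1.70 in the controls. Il2ra exceeded Il7r in AIH 3 and in Control 3 and not in the other 4 libraries, and the groups overlapped. The mean log2 ratio was -0.24 ± 0.41 under the AIH label against -0.01 ± 0.69 in the controls (SD, n = 3), with p = 0.7 by a two-sided exact permutation test. It was 1 of 4 such ratios, all with an adjusted p of 1.0 over the 4, in a design whose smallest possible p is 0.1.

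The 250 bases before a transcript start of each alpha chain gene are shown because these genes are the parts specific to each receptor. The start used for Il7r is not its outermost one, so 65 bases of its window, the ETS match included, lie inside the annotated gene. The windows were read from RefSeq promoter sequences of GRCm38.p6, chr2:11642542-11642791 on the plus strand for Il2ra and chr15:9529877-9530126 on the minus strand for Il7r, and are written 5' to 3' with matches in capitals.
Il2ra: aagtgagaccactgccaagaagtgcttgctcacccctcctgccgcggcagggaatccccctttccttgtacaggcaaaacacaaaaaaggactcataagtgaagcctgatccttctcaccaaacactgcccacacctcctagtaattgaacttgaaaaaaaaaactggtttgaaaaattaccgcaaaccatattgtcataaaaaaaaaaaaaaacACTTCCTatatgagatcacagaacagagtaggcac
Il7r: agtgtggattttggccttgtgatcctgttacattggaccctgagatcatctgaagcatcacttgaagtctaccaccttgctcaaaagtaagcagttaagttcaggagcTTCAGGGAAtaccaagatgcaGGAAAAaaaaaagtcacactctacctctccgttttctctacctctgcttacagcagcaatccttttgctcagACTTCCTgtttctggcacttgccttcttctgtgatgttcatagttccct
The capitals mark matches, on either strand, to letters typical of STAT factors (TTCNNNGAA), NFAT (GGAAAA), FOXO (GTAAACA) and ETS factors (AGGAAGT). Both windows hold the ETS letters on the strand opposite to the one written, 35 bases before the start in Il2ra and 49 bases in Il7r. On either strand, 7.69% of 32851 such windows hold them. The Il7r window also holds the STAT letters (as do 7.02% of windows) and the NFAT letters (20.4%), and these matches do not overlap each other. The FOXO letters (3.17%) are in neither window. Of the 8 genes, 7 had a window, 9 windows in all, and the only other match was the NFAT letters in Jak3. A match describes letters and shows neither binding nor a cause.

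Il2rb (Entrez ID 16185), the signalling chain shared by the IL-2 and IL-15 receptors, was at 380, 273 and 325 CPM under the AIH label, against 317, 164 and 176 CPM in the controls. Control 1 lay among the libraries labelled AIH, while the other controls lay below all 3 of them. The log2 fold change was 0.57 (SE 0.33), with a 95% interval of -0.16 to 1.30 and an adjusted p of 0.716 by edgeR. CD8 T cells and NK cells carry much CD122. Of the 6 tested genes on their list, 5 had positive log2 fold changes, among them Cd8a at 2.53 and Nkg7 at 2.30. Klrb1c alone was negative, at -0.70 with an SE of 2.31, and was at 0 in AIH 2 and AIH 3. The other NK cell gene, Ncr1, was at 0.15 (SE 2.53). The part of these cells in the Il2rb values was not tested.

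Il2rg (Entrez ID 16186), the gamma chain common to the receptors of IL-2, IL-4, IL-7, IL-9, IL-15 and IL-21, had the largest positive estimate of the 8 genes. It was at 919, 2671 and 1150 CPM under the AIH label against 1250, 791 and 497 CPM in the controls. AIH 2 alone stood far above the rest, and Control 1 lay above AIH 1 and AIH 3. The log2 fold change was 0.90 (SE 0.46), with a 95% interval of -0.12 to 1.93 and an adjusted p of 0.673 by edgeR, and it was 0.29 without AIH 2. The T cell gene Cd3e showed the same high library, at 112, 430.5 and 102.5 CPM under the AIH label. In the controls Cd3e was at 51.8 to 107.9 CPM. Cd2 was also highest in AIH 2, at 853, 1947 and 1236 CPM under that label. Some others of the T cell list did not share the rise. Under the AIH label Cd3d was at 2094, 2231 and 2139 CPM, Cd3g at 3013, 3238 and 3108, and Lck at 545.5, 497.9 and 451.9. The ratio of Il2rb to Il2rg in TPM was 0.159, 0.0404 and 0.109 against 0.0972, 0.0799 and 0.136, with overlapping groups (p = 0.9, two-sided exact permutation test, n = 3 per group).

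Jak1 (Entrez ID 16451), the kinase used by both receptors, was the 1 gene of the 8 whose groups did not overlap in CPM. It was at 337, 290.3 and 362 CPM under the AIH label, against 406, 411 and 409 CPM in the controls. All 3 libraries labelled AIH lay below all 3 controls, and the controls lay close together. Groups that did not overlap were seen for 17.3% of tested genes in either direction, and for 8.87% in this one, so 1 gene of 8 is near that background. The log2 fold change was -0.31 (SE 0.24), with a 95% interval of -0.84 to 0.23 and an adjusted p of 0.806 by edgeR. It stayed between -0.40 and -0.23 with any 1 library left out. In TPM the levels were 59.8 ± 4.58 against 86.5 ± 5.91 (SD, n = 3), again with no overlap.

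Jak3 (Entrez ID 16453), the partner of the gamma chain, had few reads in every library. Its expected counts were 10.1, 170.0 and 15 under the AIH label against 125.7, 164 and 12.3 in the controls. Each group thus held both low and high libraries, and the log2 fold change of -0.64 had an SE of 1.70. In TPM the ratio of Jak3 to Jak1 was at most 0.0325, in AIH 2, and at least 0.00142, in Control 3. In the RefSeq annotation of GRCm38.p6 all 1326 bases of Insl3, a hormone gene of testis, lie inside Jak3 (chr8:71689252-71690577 within chr8:71676383-71690577), so reads there could be given to either gene. Insl3 was counted 96.9, 17.04 and 99.0 times under the AIH label, against 227, 226 and 182 times in the controls. Summed with Insl3, Jak3 had 107, 187 and 114 counts against 353, 390 and 194, or 5.71, 8.49 and 5.55 CPM against 14.2, 20.1 and 7.42 CPM. In CPM AIH 2 lay above Control 3, so the groups overlapped, with a log2 fold change of -1.08 (adjusted p 0.862 by edgeR). The Jak3 values are uncertain for this reason, and the sum was added after seeing the data.

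Stat5a (Entrez ID 20850) and Stat5b (20851), near-identical neighbours on chromosome 11 that are 346 bases apart in the RefSeq annotation, were at similar levels. Stat5a was at 56.6, 39.4 and 59.9 CPM under the AIH label, and at 28.4, 50.03 and 36.1 CPM in Control 1, Control 2 and Control 3. The groups overlapped, and the log2 fold change was 0.44 (SE 0.46, 95% interval -0.59 to 1.48). Stat5b was at 65.8, 44.9 and 54.8 CPM against 49.5, 51.5 and 68.1 CPM, and its log2 fold change was -0.03 (SE 0.40, 95% interval -0.93 to 0.87). In TPM, Stat5b was at 8.75, 8.52 and 9.07 against 9.14, 9.33 and 13.92, so its groups overlapped in CPM and not in TPM. On the TPM scale 12.1% of genes tested were lower under the AIH label with no overlap. Also in TPM, Stat5a exceeded Stat5b in all 3 libraries labelled AIH and in Control 2, while Stat5b was the higher in Control 1 and Control 3. The log2 ratio of Stat5b to Stat5a was -0.44 ± 0.18 against 0.06 ± 0.54 (SD, n = 3), with p = 0.3 by a two-sided exact permutation test.

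The likeness of these genes extends to sequence before transcript starts that lie inside both annotated genes, shown as a description. In the best ungapped match of 60 bases between their promoter windows, 51 bases (85.0%) were identical, at chr11:100860412-100860471 (plus strand) for Stat5a and chr11:100822574-100822633 (minus strand) for Stat5b in GRCm38.p6. Capitals mark identical bases.
Stat5a: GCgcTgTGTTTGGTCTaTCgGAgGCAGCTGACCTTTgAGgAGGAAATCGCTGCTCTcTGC
Stat5b: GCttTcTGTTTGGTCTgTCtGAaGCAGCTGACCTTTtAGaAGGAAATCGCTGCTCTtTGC
This stretch does not show whether reads of the 2 genes were mixed. The labels do not state how the authors' counting shared reads between the paralogs, so the split between Stat5a and Stat5b is uncertain.

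The transcript table showed which RefSeq forms of each gene had been assigned reads. Il2ra had a single form. For Il7r, the form NM_008372.4 took 100% of the gene's TPM in 5 libraries and 5.09% in AIH 3, where NM_001355680.1 took 94.9%, from 3289 of its reads. For Stat5a, NM_001164062.1 took 100% in 5 libraries and 45.7% in AIH 2, where NM_001362680.1 took the other 54.3%. Each of these departures was seen in a single library labelled AIH, so no group difference can be read from them.

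Stat5b was divided among 4 forms, and the leading form changed from library to library. NM_011489.3 took 59.0% in AIH 1 and 93.7% in Control 2 but at most 8.19% in the other 4 libraries, while XM_006532723.3 took 19.2% to 62.8% in 5 libraries and 0% in Control 2. The form XM_030253265.1 of Jak1 took 7.94% to 31.6% in the libraries labelled AIH against 60.6%, 33.8% and 0% in the controls. NM_013563.4 took 92.2% to 97.2% of Il2rg in 5 libraries and 76.7% in Control 3, and XM_006520479.2 took 80.7% to 99.8% of Il2rb in all 6. The form NM_001190830.1 of Jak3 took 55.2% to 100% under the AIH label against 75.0%, 1.88% and 7.69% in the controls, from at most 92.5 reads. In edgeR's quasi-likelihood test on transcripts, 0% of 17999 passed (748 had an unadjusted p under 0.05), and the tested forms of the 8 genes had log2 fold changes of -1.47 to 0.94, each with an adjusted p of 0.9998. In the test of transcript usage by diffSpliceDGE with Simes adjustment, 0% of 3779 genes passed (100 had an unadjusted p under 0.05), and the 5 of the 8 genes that could be tested, Il2rb, Il2rg, Jak1, Jak3 and Stat5b, all had an adjusted p of 1. No other tool was run on transcripts.

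**Figure D4:**
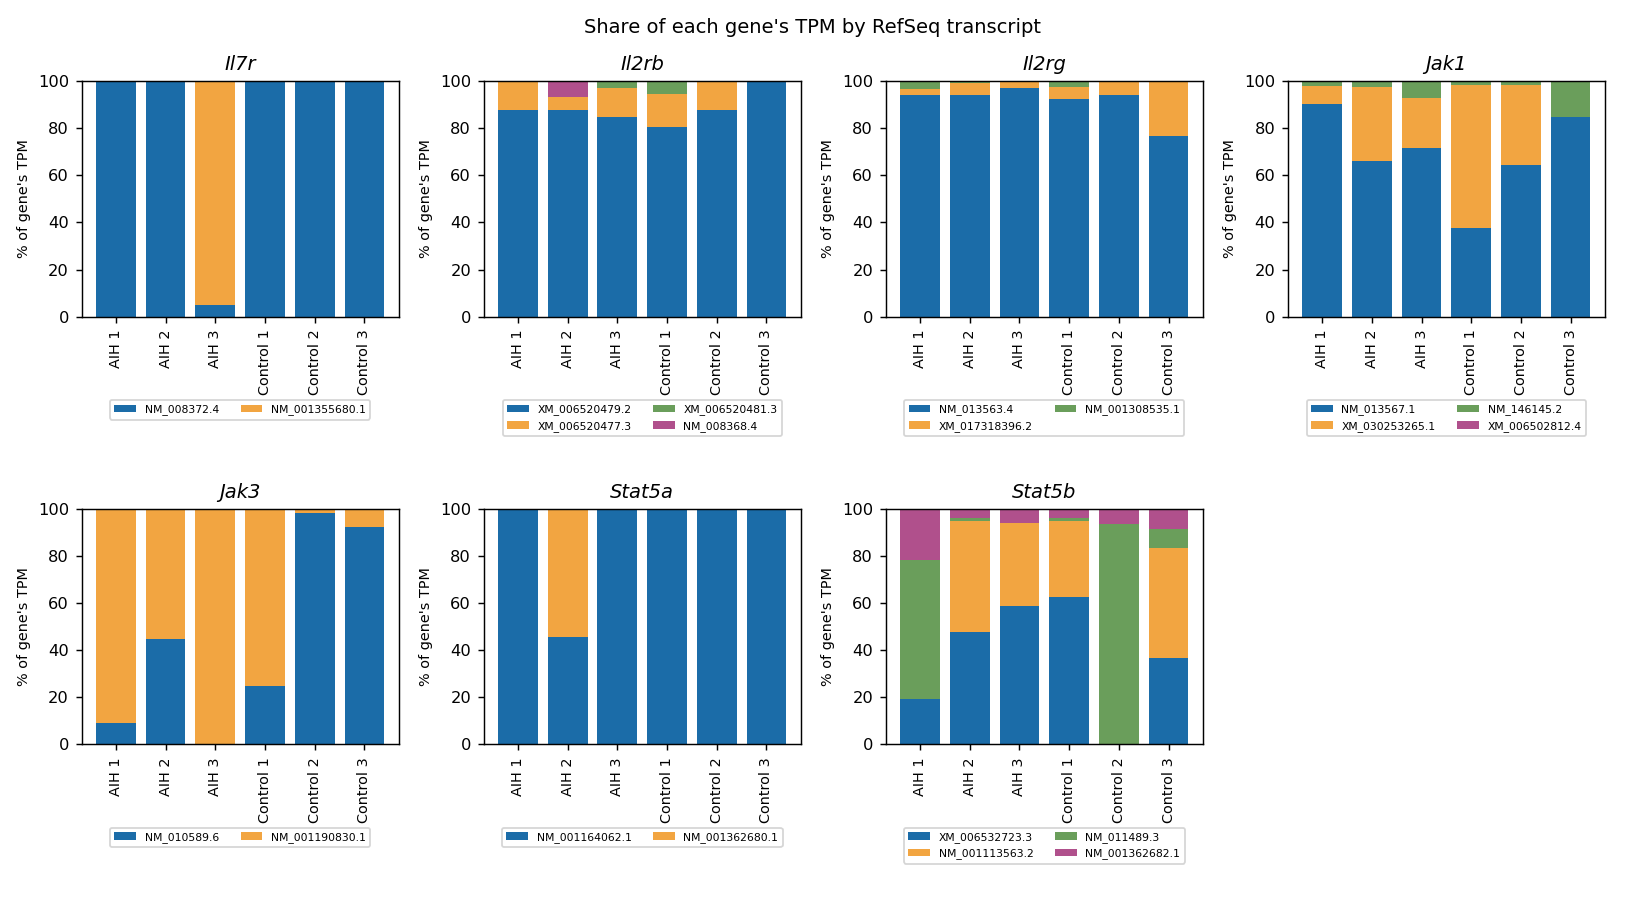
Share of each gene's TPM assigned to each RefSeq transcript, in percent, for the 7 genes with more than 1 form; each bar is a library. Il7r in AIH 3 and Stat5a in AIH 2 stand apart from the other 5 libraries, while the leading form of Stat5b differs among libraries of both groups.

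Because T cell markers were higher in the libraries labelled AIH, each gene was also set against the summed T cell list of its own library, a scaling added after seeing the data. The T cell sum was itself 0.82 higher on the log2 scale under the AIH label, so every gene's difference in mean log2 CPM is shifted down by that amount. Such a difference between 0 and 0.82 changes sign by construction. The edgeR estimates are computed otherwise and need not differ from the scaled values by exactly that amount. On that scale Il2rg was at 12.9%, 29.4% and 15.2% of the T cell sum under the AIH label, and at 23.5%, 16.95% and 13.8% in Control 1, Control 2 and Control 3, a log2 difference of 0.02. Il2rb differed by -0.19 and Stat5a by -0.36. Jak1 was at 4.74%, 3.19% and 4.798% against 7.65%, 8.803% and 11.4%, a log2 difference of -1.13, and Il7r at 1.84%, 1.49% and 2.24% against 3.76%, 2.68% and 2.65%, a difference of -0.70. Stat5b differed by -0.85, Il2ra by -0.92 and Jak3 by -1.73. For Jak1, Il7r and Stat5b the groups did not overlap on this scale, all lower under the AIH label, as for 27% of all genes tested, so 3 genes of 8 is near the background. The T cell list is not constant either. Of its 9 tested members, Cd3g and Cd3d lay higher in CPM in the libraries labelled AIH with no overlap, as for 8.46% of all genes tested. Thy1 lay lower with no overlap, as for 8.87%. Cd4 stood at 49.3, 93.3 and 28.3 CPM against 109.4, 82.0 and 80.7 CPM.

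Of the ligands of these receptors, Il15 was the only one counted in all 6 libraries, and Il9 was not among the 15442 genes with values. Il2 was counted 19 times in AIH 1 and 0 times in the other 5 libraries. Il7, normally a product of stromal and epithelial cells, was counted 161 times in AIH 2 and at most 2 times elsewhere, and Il21 was counted 244 times in AIH 3 and 0 times elsewhere. Il4 was counted 40 times in AIH 2 and 157 times in Control 1, and Tslp, which signals through Il7r with Crlf2, 19 times in AIH 2 and 176 times in Control 1. A count of 0 allows up to 3 counts in a library. Each of these genes was thus seen in at most 3 libraries, none passed the filter, and no fold is given.

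Il15, the cytokine that shares Il2rb and Il2rg and is made largely by macrophages and dendritic cells, was counted 2, 6 and 22 times under the AIH label, against 275, 328 and 747 times in the controls. It was the 1 ligand tested, with a log2 fold change of -5.27 (SE 1.42, adjusted p 0.382 by edgeR's quasi-likelihood test). All libraries labelled AIH lay below all controls, as for 8.87% of all genes tested. The macrophage sums, given above, were lower in the same libraries, and their part in the Il15 values was not tested. DESeq2's Wald test gave an adjusted p of 0.00168 and limma-voom 0.442. The 5 partner and related receptor genes all had negative log2 fold changes with overlapping groups, at -0.07 for Crlf2, -0.24 for Il4ra, -0.33 for Il15ra, -0.35 for Il9r and -0.43 for Il21r, and SEs of 0.66 to 1.39.

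Around the pathway, 76 genes in 7 lists were chosen and 70 were tested. None of the 70 passed by edgeR, while 10 (14.3%) had an unadjusted p under 0.05 beside 8.27% of all genes tested, and 12 (17.1%) had groups that did not overlap beside 17.3%. DESeq2 passed 3 of the 70 (Il15, Tnfrsf4 and Tnfrsf18), beside 180 of all 11140 genes tested. By limma-voom 2 of the 70 passed (Tnfrsf4 and Tnfrsf18), beside 21 of all 11140. Stat2, a transcription factor of interferon signalling, was at 21.2, 23.1 and 21.0 CPM under the AIH label against 34.7, 51.0 and 151.5 CPM in the controls, with a log2 fold change of -1.86 that was -0.97 without Control 3. Stat3 was at 44.6 ± 5.96 against 66.1 ± 7.76 CPM, and Stat4 at 143 ± 32.8 against 102 ± 70.4 CPM (SD, n = 3 per group).

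Negative regulators, which damp the signal, were mixed, with 8 positive and 6 negative log2 fold changes and a median of 0.14. Cish, a SOCS family inhibitor that STAT5 induces, was at 127, 173 and 130.4 CPM under the AIH label, and at 72.9, 24.1 and 82.6 CPM in Control 1, Control 2 and Control 3. The controls all lay below the 3 other libraries, as for 8.46% of all genes tested, with a log2 fold change of 1.26 (SE 0.47, adjusted p 0.522 by edgeR). Sh2b3, an adaptor that restrains JAK signals in blood cells, lay the other way, at 8.49 ± 6.51 against 35.9 ± 5.64 CPM, and Ptpn2, a phosphatase of JAK1 and JAK3, was at 168 ± 25.8 against 109 ± 38.7 CPM (SD, n = 3).

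STAT5 target genes had 9 positive and 8 negative log2 fold changes among 17 tested, with a median of 0.16. The costimulatory receptor genes Tnfrsf4 and Tnfrsf18 had the smallest p-values. Tnfrsf4 was at 1406, 2309 and 1524 CPM under the AIH label against 448, 291 and 122.7 CPM in the controls, and Tnfrsf18 at 1503, 2301 and 1567 CPM against 701, 428 and 291 CPM. Both had groups that did not overlap, with log2 fold changes of 2.60 and 1.92 and adjusted p-values of 0.148 and 0.193 by edgeR. Without the filter on low counts these became 0.00757 and 0.0167 in the same edgeR test. Ccnd2, the cyclin D2 gene, was at 550.4 ± 127 against 296 ± 63.3 CPM, and its log2 fold change was 0.90 (SE 0.29, adjusted p 0.466). Foxp3, itself a STAT5 target, lay below in all 3 libraries labelled AIH, with a log2 fold change of -3.54.

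Of the 14 genes of the adaptor and PI3K branch, 13 had estimates below 0, beside 5782 of all 11140 genes tested. The median log2 fold change was -0.56 beside -0.04 for all genes tested. Only 1 of the 14 had an unadjusted p under 0.05 by edgeR, beside 8.27% of all genes tested. In 1 of the 14 the groups did not overlap, beside 17.3%. Foxo1, a transcription factor that keeps Il7r on in resting T cells, was at 66.2, 40.6 and 131.6 CPM against 153, 144 and 178 CPM, with groups that did not overlap and a log2 fold change of -0.997 (SE 0.43, adjusted p 0.599 by edgeR). Akt2 was at 24.7 ± 12.2 against 55.9 ± 33.6 CPM and Pik3cd at 33.5 ± 21.5 against 65.0 ± 40.7 CPM (SD, n = 3), both with overlapping groups. Among 13 regulators of Il7r and Il2ra transcription, with a median of 0.16, Spi1, a factor of myeloid and B cells, was at 11.4 ± 8.14 against 49.7 ± 24.7 CPM, and Nfatc1 at 88.0 ± 12.46 against 55.7 ± 21.0 CPM. The groups did not overlap for either, as for 17.3% of all genes tested in either direction. Spi1 and the macrophage sums were both lower under the AIH label. In that group Spi1 was at 20.9, 6.49 and 7.01 CPM and the macrophage sums at 411, 2121 and 2617 CPM, in a different order. In the controls Spi1 was at 43.1, 29.0 and 77.1 CPM and the sums at 6541, 3614 and 14190 CPM, in the same order. The part of macrophages in the Spi1 values was not tested.

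**Figure D5:**
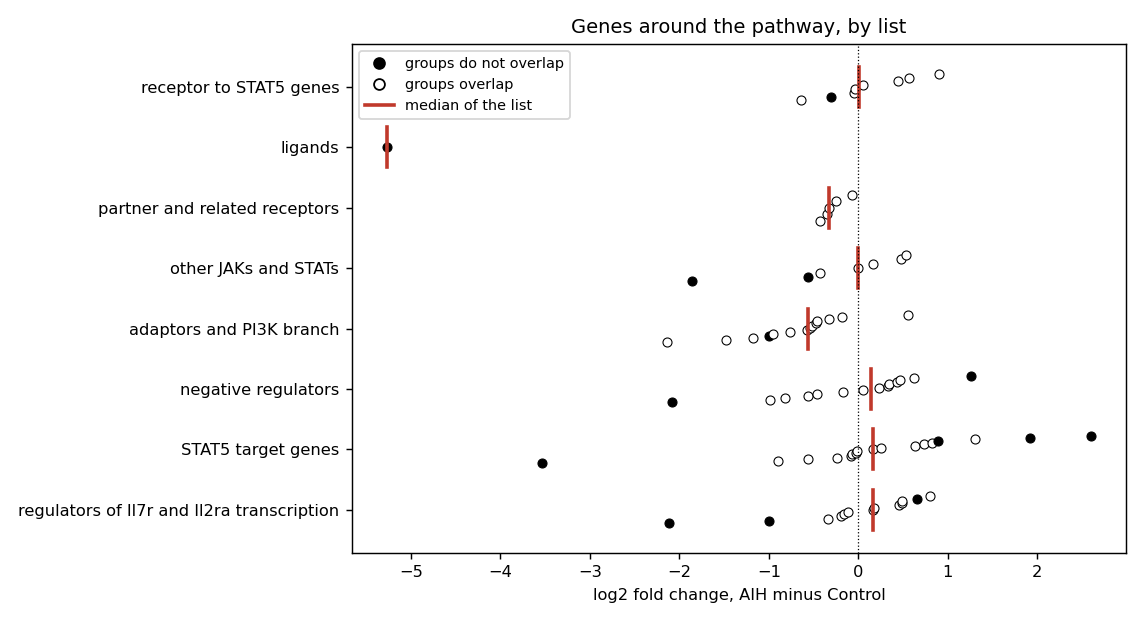
Log2 fold change (labelled AIH minus control) of the 8 receptor to STAT5 genes and of the tested genes in 7 lists around them; each circle is a gene, filled where the groups do not overlap, and red bars are medians. Medians lie between -0.56 and 0.16 except for the single ligand tested, Il15, at -5.27.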

How the data were processed

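The samples were 3 libraries labelled AIH and 3 labelled control, of cells sorted from mouse liver. Per the labels' protocols, cDNA was made by SMART-SeqII and cut with a transposon before sequencing; single cells are mentioned there, but each library was deposited as 1 sample. FastQC, STAR, featureCounts, GRCm39 and mm39 are named in the submitters' processing notes, without versions. The authors deposited expected counts (14.8 to 16.7% per library not whole), TPM, FPKM and a normalized read count signal, per gene and per transcript. FPKM, the deposited signal and the authors' group means were not used.

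Expected counts were rounded. The main test was edgeR 4.0.16 under R 4.3.3, with TMM scaling, filterByExpr (count of at least 10, total of at least 15), a quasi-likelihood model of group alone, and Benjamini-Hochberg adjustment over all features at 0.05. It was also run on counts simulated from its own fitted dispersions. Such a run cannot show how the test does where data depart from the model. The SE is |log2 fold change| / sqrt(F) and, with the intervals, is approximate near 0. Alternatives were DESeq2 1.42.0, limma 3.58.1 (voom), other scalings and filters, a replicate block and each library left out. Limits on counts of 0 cover counting error only.

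Named were the 8 genes, all ligands and partner receptors, and up to 3 genes per other list by smallest p. Foxp3 and the 3 genes most like Il2ra and Il7r were named too. Insl3, Cd2, Cd3d, Cd3e, Cd3g, Cd4, Thy1, Lck, Nkg7, Gzma, Ncr1, Klrb1c, Cd8a and Lrrc32 were chosen after their values were seen. So were the hepatocyte genes Alb, Apoa1, Ttr, Serpina1a, Fgb and Apoc1. The genes, lists and motifs were chosen with earlier results of these data known. Coordinates are RefSeq's on GRCm38.p6; the notes name another build, so no value was joined to a position.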

Additional observations from a re-analysis of the deposited data

How the results depend on the processing

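Of 306 recomputed values, 251 were held to be the same, 42 changed sign and 13 moved. Fold changes were the same if they kept their direction and side of the threshold. For ratios and values scaled to the T cell list only the direction was compared. Counts of genes or transcripts were the same if close to the main count and moved otherwise. Apart from the T cell scaling the cause was not tested. The count of genes past the threshold was 3 with library totals, 32 with no filter, 0 with the replicate block, 180 with DESeq2, 21 with limma-voom, 1 without AIH 1 and Control 3 together, and 0 to 1 with each library left out. Library totals moved the median log2 fold change of all genes from -0.04 to -0.23. No gene of the 8 passed under any of these, with a smallest adjusted p of 0.351 for Il2rg (DESeq2). Transcripts past the threshold numbered 24 with no filter. Without AIH 1 and Control 3 together, Il2ra was at 0.36 and Il7r at -0.086; Il7r was at -0.11 with library totals. Scaled to the T cell list, Il7r was at -0.70, Il2rb at -0.19 and Stat5a at -0.36. This choice, made after seeing the data, lowers every gene's difference in mean log2 CPM by 0.82. That shift itself produces these sign changes. Jak3 had no value at the filter of 10 CPM.

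With each library left out in turn, log2 fold changes ran from -0.44 to 0.20 for Il2ra, -0.15 to 0.41 for Il7r, 0.40 to 0.94 for Il2rb, 0.29 (without AIH 2) to 1.30 (without Control 1) for Il2rg, 0.28 to 0.68 for Stat5a, -2.87 (without AIH 2) to 0.11 (without Control 2) for Jak3 and -0.18 to 0.13 for Stat5b. The unadjusted p fell under 0.05 for Il2rg without AIH 1 (0.0301), without Control 1 (0.0284) and with no filter (0.0342), and for Il2rb without Control 1 (0.0180). Transcript estimates ran from -0.47 to 0.19 for Il2ra, -1.47 to 0.26 for XM_017318396.2 and -0.31 to 3.90 for NM_001308535.1 of Il2rg, -0.20 to 0.24 for NM_013567.1 and -2.11 to 0.82 for NM_146145.2 of Jak1, -6.80 to 0.46 for NM_010589.6 and -1.16 to 4.21 for NM_001190830.1 of Jak3, and -0.13 to 0.55 for Stat5a. For Stat5b they ran from -0.40 to 0.99 for XM_006532723.3, -0.80 to 0.75 for NM_001113563.2, -5.68 to 1.84 for NM_011489.3 and -0.50 to 1.17 for NM_001362682.1. Ratio differences ran from -0.49 to 0.17 for Il2ra to Il7r, -0.62 to 0.37 for Il2rb to Il2rg and -1.83 to 0.24 for Jak3 to Jak1.

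Deviations of same-numbered libraries correlated at 0.0132, 0.00134 and 0.191, and those of differently numbered ones at -0.122 to 0.108. The labels tie no numbers together and not every pair passed 0.1, so the numbers were not taken as pairs.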
